A study of Rattus norvegicus with 12 samples.

Results

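The proteasome genes described here are the 47 genes, of 18749 in a deposited rat count table, whose annotation carries the KEGG proteasome pathway. By role they comprised 8 alpha-ring subunits of the 20S core particle, 4 structural and 3 constitutive catalytic subunits of its beta rings, and 4 catalytic subunits of the immunoproteasome and thymoproteasome. The 19S regulatory particle contributed 6 ATPases and 4 other subunits of its base and 9 subunits of its lid. A further 4 genes encode activators that bind the core in place of 19S, and 3 encode an inhibitor, a maturation factor and the cytokine interferon gamma. The last 2, Psmd9 and LOC100360846, stood in none of these lists. The tissue was intestine of wild-type rats, in a study of how the small intestine adapts to removal of the whole colon, and polyadenylated RNA of 12 samples was sequenced. Group preCTC was sampled ahead of a sham operation, preSTC ahead of the operation and postSTC after it, with 4 libraries in each group and all of them in batch 1. The labels used here give no strain, age, sex, gut segment or time after operation, and do not spell out STC or CTC. The design text of the series names ileum, but it also describes mapping to a pig genome, so the segment is not taken from it. Samples from after the sham procedure were not analysed here. Surgery and the passage of time therefore cannot be told apart, nor can the gut segment and the group.

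The proteasome is the barrel-shaped protease that degrades proteins tagged with ubiquitin. Alpha rings gate the barrel, beta rings cut the substrate, and the 19S cap recognises ubiquitin, removes it and threads the unfolded protein into the core. Interferon signalling induces 3 replacement catalytic subunits, Psmb8, Psmb9 and Psmb10, which take the places of Psmb5, Psmb6 and Psmb7 in newly built cores and alter which peptides are produced for presentation on MHC class I. In the intestine these subunits are found in immune cells of the mucosa and can be induced in the epithelium during inflammation.

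Libraries held 30095656 to 39374682 counts. Library postSTC7 stood apart: 42.9% of its counts lay in 10 transcripts of the male accessory glands, against at most 0.0243% in any other library, and results that rest on it are given with and without it. The labelled tissue carried its defining markers, with no marker of the epithelium, smooth muscle or immune lists at 0 throughout a group. Levels are CPM, read counts relative to a library size adjusted by TMM (the trimmed mean of M values), given as mean ± SD over 4 libraries. Per-library values follow replicate order, which is 1, 5, 7 and 9 in preCTC and preSTC and 1, 2, 5 and 7 in postSTC. A gene was called changed where the quasi-likelihood test of edgeR, with Benjamini-Hochberg adjustment over the 15704 genes tested, gave an adjusted p under 0.05. The filter on low counts kept 45 of the 47 proteasome genes and left out Psma8 and Psmb11. Nothing in the labels says that replicates came from separate animals, so p-values measure the spread between these samples only.

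Transcripts of the proteasome were higher in preSTC than in preCTC and lower in postSTC than in preSTC. In preSTC, 39 of the 45 tested genes rose above preCTC and none fell, where 19.1% of all genes tested rose and 19.6% fell. The median log2 fold change of the 45 was 0.50, against -0.02 over all genes tested. After the operation 23 of the 45 fell below preSTC and none rose, where 6.90% of all genes fell and 11.1% rose, and the median was -0.30 against 0.04 over all genes. At an unadjusted p under 0.05, 32 were lower and 0 higher. DESeq2 called 25 lower and 0 higher, and limma voom 22 lower and 0 higher. Against preCTC, 7 genes were higher in postSTC and none lower, where 9.27% of all genes rose and 7.37% fell. That 0 compares with 1 lower at an unadjusted p under 0.05, 1 by DESeq2 and 0 by limma voom. The 7 were Psmb8, Psmb9, Psme2, Psmf1, Pomp, Ifng and Psmc1. The comparisons share groups and are not independent of each other.

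The pooled level moved in the same order. Summed over the 47 genes, CPM was 3869.8 to 4492 in preCTC, 6045 to 6689 in preSTC and 4719 to 5099 in postSTC. These ranges did not overlap. As a share of all counts, the 47 genes made up 0.444% to 0.491% in preCTC and 0.507%, 0.518%, 0.561% and 0.268% in postSTC. On that scale postSTC7, whose total includes the gland transcripts, lay below preCTC, so the separation of these 2 groups depended on the scaling. In 40 of the 45 genes every preSTC library lay above every preCTC library, as in 22.5% of all genes tested. In 26 every postSTC library lay below every preSTC library (10.2% of all genes) and in 0 above (11.9%). In 9 every postSTC library lay above every preCTC library (9.54% of all genes) and in 0 below (8.60%). The drop after the operation depended on the fit. Replicate numbers 1, 5 and 7 are shared by preSTC and postSTC, and deviations of same-numbered libraries from their group means correlated at 0.158 to 0.236. Whether these samples are paired is not known. With the number as a block, 14 of the 45 genes fell in the fit of 12 libraries. In the fit of the 8 libraries compared none of the 45 passed, 20 had an unadjusted p under 0.05, and 66 of 15286 genes passed in all. Libraries postSTC2 and preSTC9 have no same-numbered partner there, so that blocked comparison rests on numbers 1, 5 and 7 only. The median log2 fold change was -0.31 in both blocked fits. Without postSTC7, 26 of the 45 fell. Leaving out preSTC1 or preSTC7 reduced the 23 to 13 in each case. Scaled to library totals alone, which in postSTC7 include the gland transcripts, none of the 45 was called, although all 45 estimates were below 0. In bulk tissue, fewer cells of a type and less RNA per cell cannot be told apart.

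**Figure D1:**
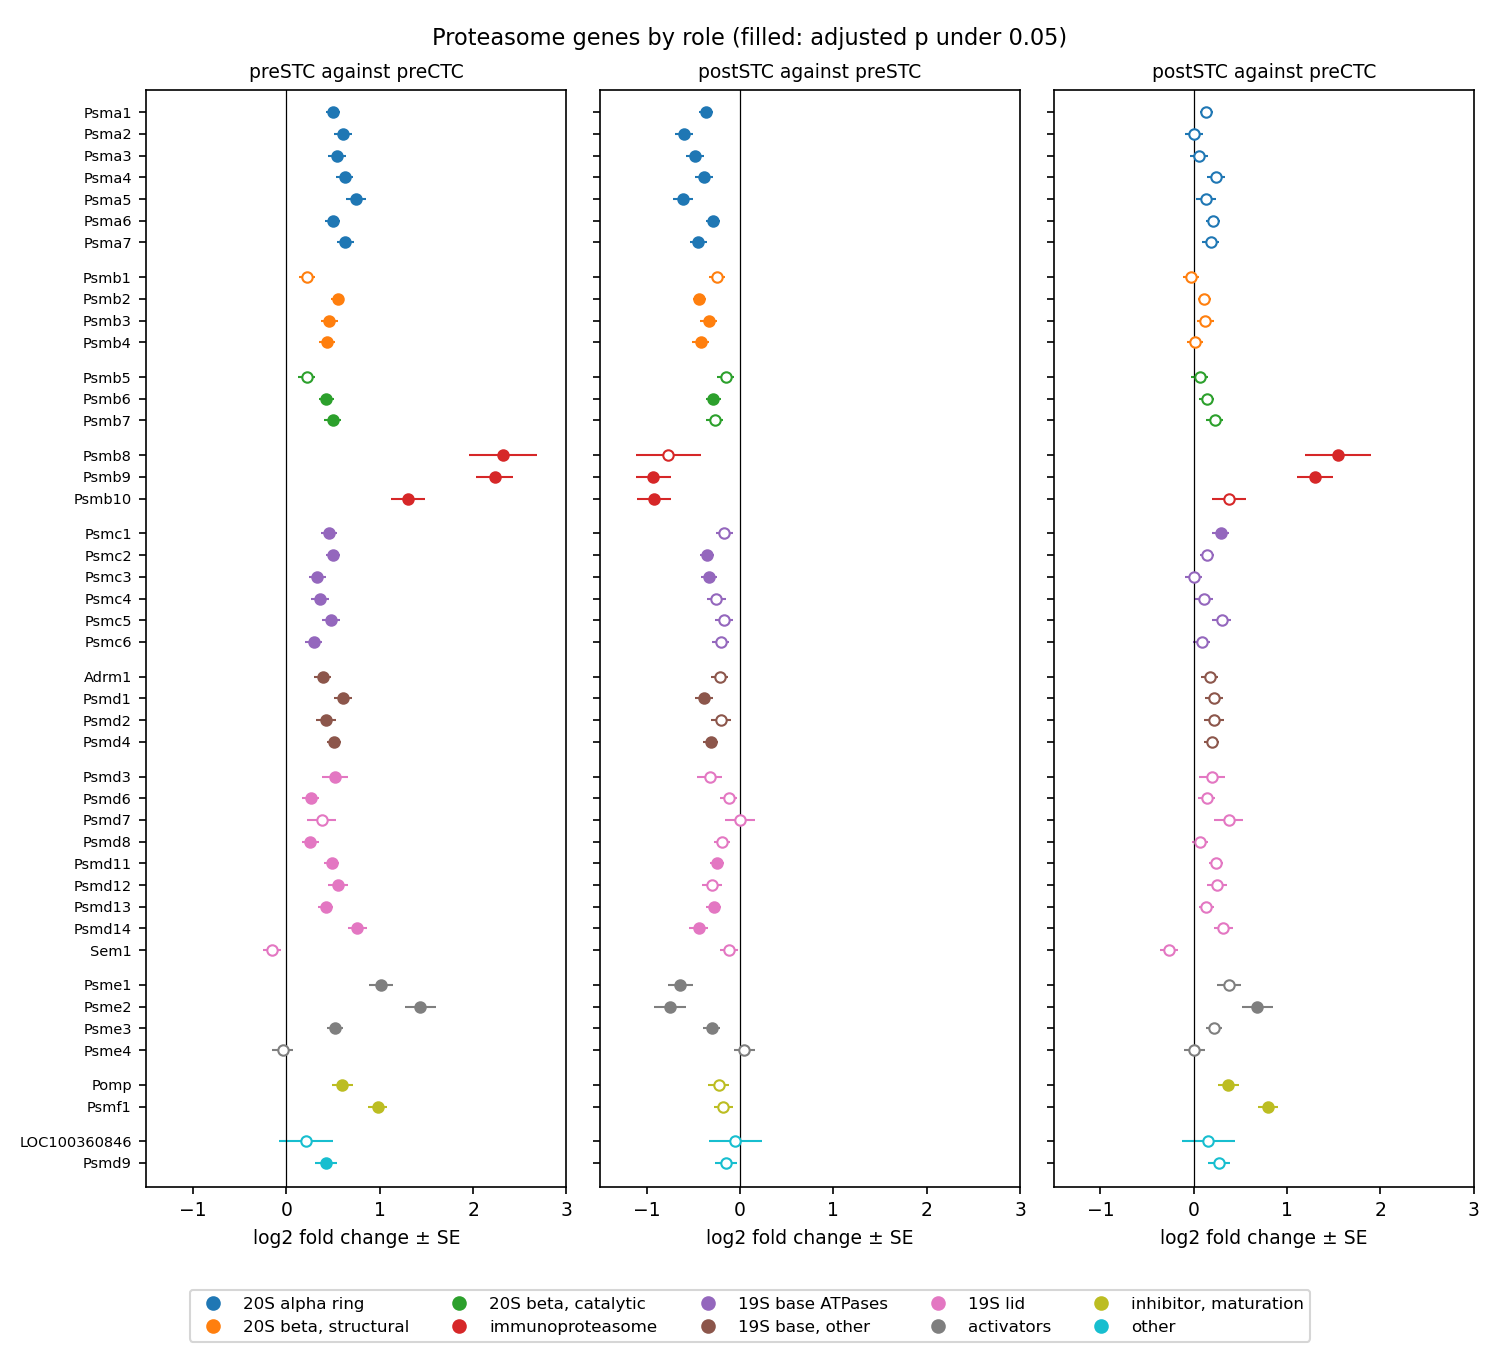
Log2 fold change ± SE of 44 tested proteasome genes, grouped and coloured by role, in the 3 comparisons; filled points have an adjusted p under 0.05. Ifng is left out because preCTC held 3 counts of it in all. The immunoproteasome subunits and the activators Psme1 and Psme2 lie farthest from 0 in the first panel, and nearly all estimates in the second panel are below 0.

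Apart from Ifng, Psmb8 and Psmb9 had the largest fold differences between preSTC and preCTC of the 45 tested genes. Psmb9 (Gene ID 24967), the replacement for the caspase-like subunit Psmb6, was at 38.1, 67.6, 46.5 and 45.7 CPM in preCTC. It was at 271, 207, 243 and 209 CPM in preSTC and at 127, 125, 149 and 88.3 CPM in postSTC. Every preSTC library lay above every postSTC library, and every postSTC library above every preCTC library. Psmb9 was 4.70-fold higher in preSTC than in preCTC (log2 fold change 2.23 ± 0.20, adjusted p = 9.97e-06) and 1.90-fold lower in postSTC than in preSTC (log2 -0.93 ± 0.19, adjusted p = 0.00806). In postSTC it remained 2.47-fold above preCTC (adjusted p = 0.000912). With the replicate block the adjusted p after the operation was 0.0304 over 12 libraries and 0.107 over 8.

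Psmb10 (Gene ID 291983), which replaces the trypsin-like subunit Psmb7, was at 55.1, 72.8, 65.6 and 47.6 CPM in preCTC. Its levels were 159, 136, 159.7 and 139 CPM in preSTC and 90.4, 87.9, 84.4 and 50.9 CPM in postSTC. The 4 preSTC libraries stood above all others, whereas the ranges of postSTC and preCTC overlapped through postSTC7. Psmb10 rose 2.46-fold in preSTC over preCTC (log2 1.30 ± 0.18, adjusted p = 0.000228) and fell after the operation (log2 -0.92 ± 0.18, adjusted p = 0.0065; 0.106 with the block over 8 libraries). The difference between postSTC and preCTC was 0.38 ± 0.18 on the log2 scale, with an adjusted p of 0.176. Without postSTC7 that difference was 0.54 with an adjusted p of 0.0166.

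Psmb8 (Gene ID 24968), which replaces the chymotrypsin-like subunit Psmb5, varied most within groups. It stood at 57.0, 70.3, 38.4 and 42.5 CPM in preCTC, 370.4, 288, 201 and 181 CPM in preSTC and 213, 156, 179 and 62.5 CPM in postSTC. PreSTC lay wholly above preCTC. In postSTC, replicate 1 lay inside the preSTC range, replicates 2 and 5 lay just below it, and postSTC7 lay inside the preCTC range. Psmb8 was 4.99-fold higher in preSTC than in preCTC (adjusted p = 0.000456) and 2.93-fold higher in postSTC than in preCTC (adjusted p = 0.0113). Its log2 difference after the operation, -0.77 ± 0.35, did not pass (adjusted p = 0.142). Without postSTC7 it was -0.52 (adjusted p = 0.207). With the replicate block over 12 libraries, postSTC7 included, the difference was -1.001 and passed (adjusted p = 0.0322). Over 8 libraries it did not (adjusted p = 0.113). Psmb11, the catalytic subunit of the thymus, had 2 counts in preCTC and 0 in the other groups.

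**Figure D2:**
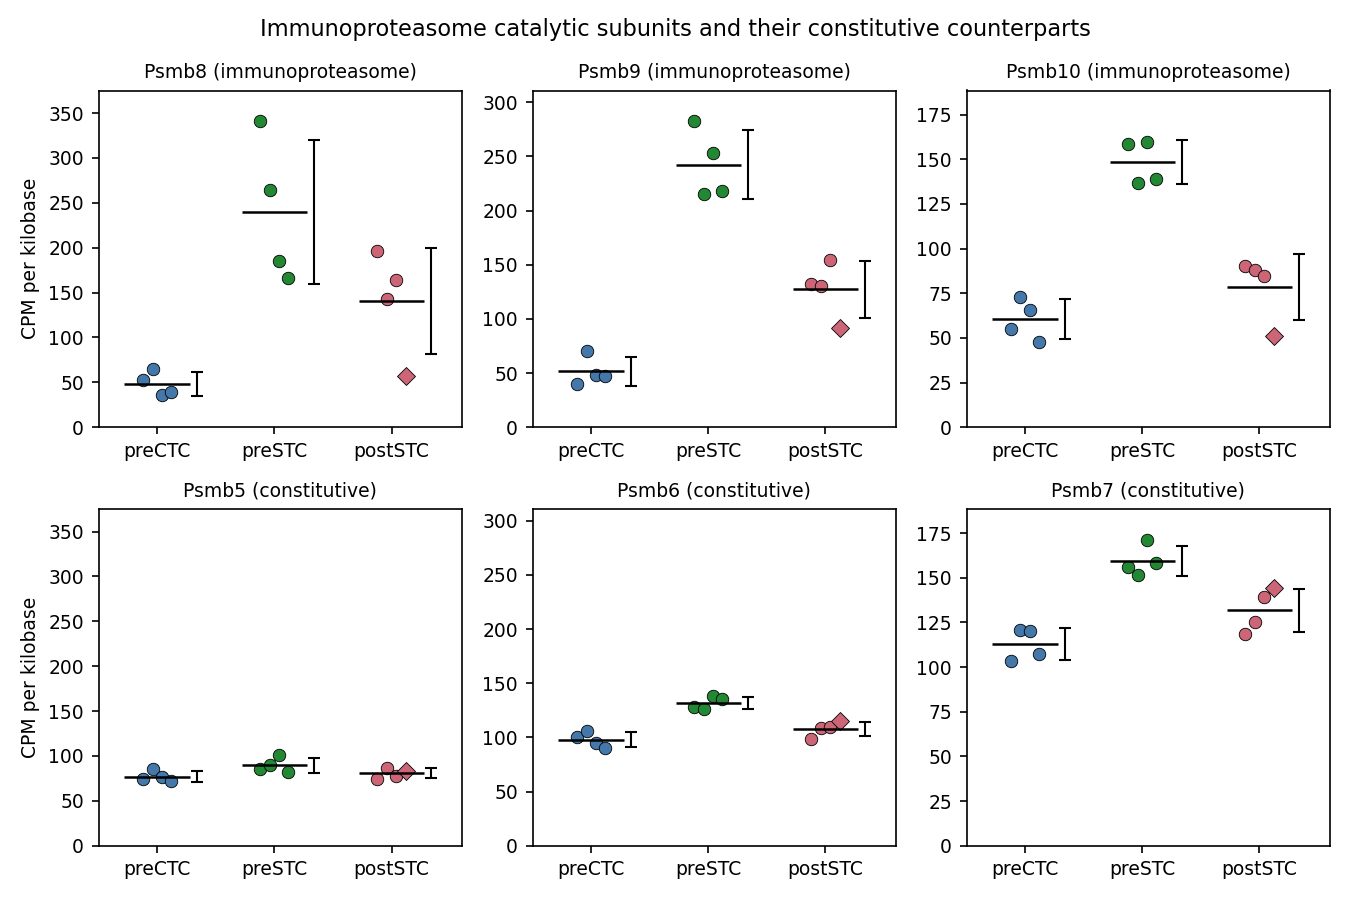
Length-scaled level (CPM per kilobase) of each immunoproteasome subunit above its constitutive counterpart, on a shared axis within each column. Points are libraries, lines are group means, bars are SDs over 4 libraries and the diamond is postSTC7. Immunoproteasome subunits spread widely between groups, while Psmb5, Psmb6 and Psmb7 stay within narrower ranges.

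Of the constitutive counterparts, Psmb5 passed in no comparison, with 65.6 ± 5.00 CPM in preCTC, 76.2 ± 6.89 in preSTC and 68.6 ± 4.74 in postSTC (SD, n = 4). Psmb6 was at 75.7 ± 5.44, 102 ± 4.34 and 83.4 ± 5.19 CPM in the same order. It was 1.35-fold higher in preSTC (adjusted p = 0.00142) and fell after the operation (log2 -0.29 ± 0.08, adjusted p = 0.0282), a call lost with the block (adjusted p = 0.0986 over 12 libraries). Psmb7 was at 109.7 ± 8.59, 155 ± 8.24 and 128 ± 11.7 CPM. It was 1.41-fold higher in preSTC (adjusted p = 0.00134), and its difference after the operation, -0.27 ± 0.09 on the log2 scale, did not pass (adjusted p = 0.0591) but did without postSTC7 (log2 -0.33, adjusted p = 0.0265). The estimate for each of these 3 genes was smaller in size than that for its replacement in every comparison.

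Ratios of a replacement subunit to its counterpart within a library need no scaling between libraries. The log2 count ratio of Psmb9 to Psmb6 was -1.03, -0.28, -0.66 and -0.61 in preCTC, 1.45, 1.08, 1.19 and 1.00 in preSTC and 0.73, 0.58, 0.81 and -0.01 in postSTC. The 3 groups did not overlap, with postSTC between the other two. The mean ratio was 3.54-fold higher in preSTC than in preCTC and 1.57-fold lower in postSTC than in preSTC. For each of these, an exact two-sided permutation test gave p = 0.0286, the smallest that 70 splits of 4 against 4 allow, and 0.0429 after Benjamini-Hochberg adjustment over the 9 ratios and comparisons. In postSTC the ratio was still 2.25-fold above preCTC, with the same exact p.

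The ratio of Psmb10 to Psmb7 was -0.86, -0.69, -0.83 and -1.13 on the log2 scale in preCTC, 0.07, -0.11, -0.06 and -0.15 in preSTC and -0.35, -0.47, -0.68 and -1.46 in postSTC. The preSTC libraries exceeded all others, and the lowest ratio of all belonged to postSTC7. The mean differed by 0.81 between preSTC and preCTC and by -0.68 between postSTC and preSTC (exact permutation p = 0.0286, adjusted 0.0429 for both). Between postSTC and preCTC it differed by 0.14 ± 0.27 (SE; exact permutation p = 0.571). Without postSTC7 that difference was 0.376 (adjusted exact p = 0.0643), and the other 3 postSTC ratios all lay above those of preCTC. Psmb8 to Psmb5 showed the widest spread, with -0.15, -0.04, -0.77 and -0.52 in preCTC, 2.34, 1.91, 1.23 and 1.38 in preSTC and 1.74, 1.07, 1.44 and -0.18 in postSTC. Only the difference of 2.09 between preSTC and preCTC passed (exact permutation p = 0.0286, adjusted 0.0429). After the operation the mean difference was -0.70 ± 0.49 (SE; exact permutation p = 0.229), and -0.296 without postSTC7 (adjusted exact p = 0.457). Against preCTC the postSTC mean was higher by 1.39 (exact permutation p = 0.0857, adjusted 0.11), and by 1.79 without postSTC7, where the adjusted exact p was 0.0367.

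On the length-scaled level, Psmb8 made up 37.9% ± 5.42 of the Psmb8 and Psmb5 pair in preCTC (SD, n = 4), 71.6% ± 6.96 in preSTC and 60.9% ± 14.0 in postSTC. The share of Psmb9 in its pair was 34.1% ± 4.73, 64.6% ± 3.06 and 53.7% ± 6.38. For Psmb10 the shares were 34.7% ± 2.90, 48.2% ± 1.62 and 37.1% ± 7.69. Transcripts of Psmb8 and Psmb9 thus outnumbered those of their counterparts per kilobase in all preSTC libraries and in none of preCTC, whereas Psmb10 exceeded Psmb7 in 1 library, preSTC1. In postSTC7 the 3 shares were 40.9%, 44.5% and 26.1%, below the rest of its group in each pair.

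**Figure D3:**
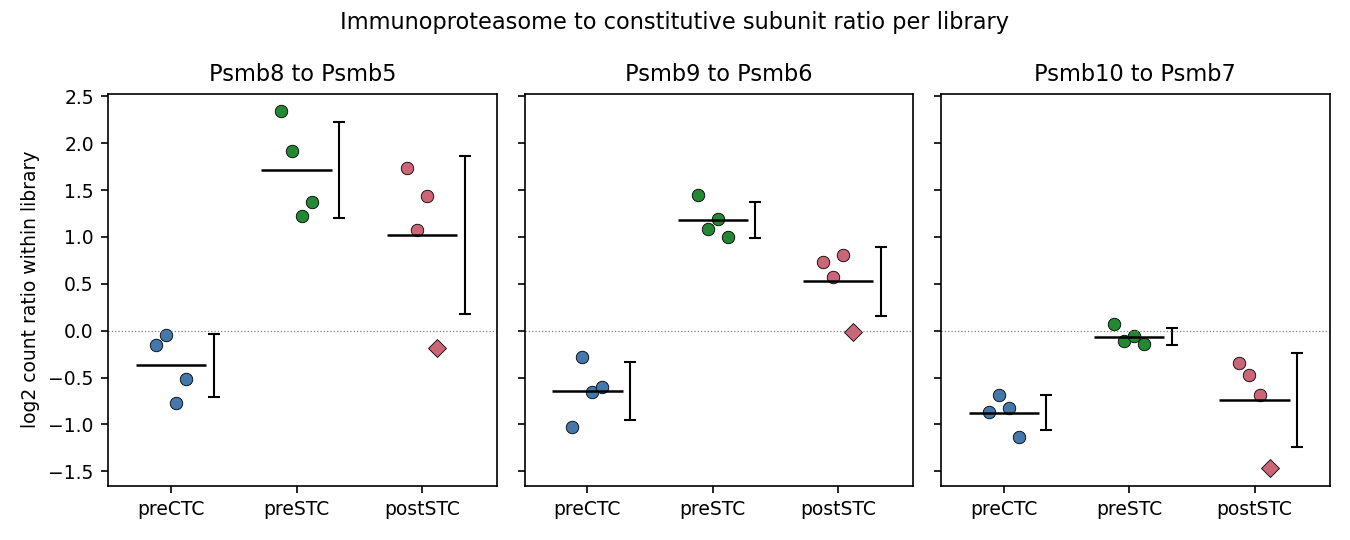
Log2 ratio of counts of each immunoproteasome subunit to its constitutive counterpart within each library; lines are means, bars are SDs over 4 libraries and the diamond is postSTC7. For all 3 pairs preSTC lies above preCTC without overlap, and postSTC7 is the lowest library of postSTC.

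The proteasome activators that bind the core without ATP divided in the same way. Psme1 and Psme2 encode the alpha and beta subunits of PA28, an interferon-induced cap. Psme1 was at 133, 186, 147 and 151 CPM in preCTC, 321, 315, 331 and 281 in preSTC and 198, 202, 235 and 167 in postSTC. It was 2.02-fold higher in preSTC (adjusted p = 0.00012) and fell after the operation without overlap (log2 -0.64 ± 0.13, adjusted p = 0.00731; 0.116 with the block over 8 libraries). Psme2 was at 92.4, 139.9, 106 and 91.6 CPM in preCTC, 324, 259.6, 308 and 269 in preSTC and 202, 169.8, 188 and 129.8 in postSTC. Its preSTC level was 2.70-fold that of preCTC (adjusted p = 6.92e-05). It fell after the operation (log2 -0.75 ± 0.17, adjusted p = 0.0111; 0.12 with the block over 8 libraries) and stayed 1.60-fold above preCTC (adjusted p = 0.0163), with postSTC7 inside the preCTC range. That last call was lost without preCTC1.

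Psme3 encodes PA28 gamma, the nuclear activator, and Psme4 encodes PA200. Psme3 was at 71.5 ± 5.13 CPM in preCTC, 102 ± 6.37 in preSTC and 82.9 ± 6.78 in postSTC. It was 1.43-fold higher in preSTC than in preCTC (adjusted p = 0.000745) and fell after the operation (log2 -0.30 ± 0.09, adjusted p = 0.032), although not with the block (adjusted p = 0.0844 over 12 libraries). Psme4 was at 178 ± 15.2, 173 ± 18.6 and 179 ± 20.1 CPM and passed in no comparison, its largest log2 difference being 0.05 ± 0.11 between postSTC and preSTC. Per kilobase, Psme1 was the most abundant of the 4 activator transcripts in every group and Psme4 the least, at 312 ± 21.5 and 13.8 ± 1.49 CPM per kilobase in preSTC.

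**Figure D4:**
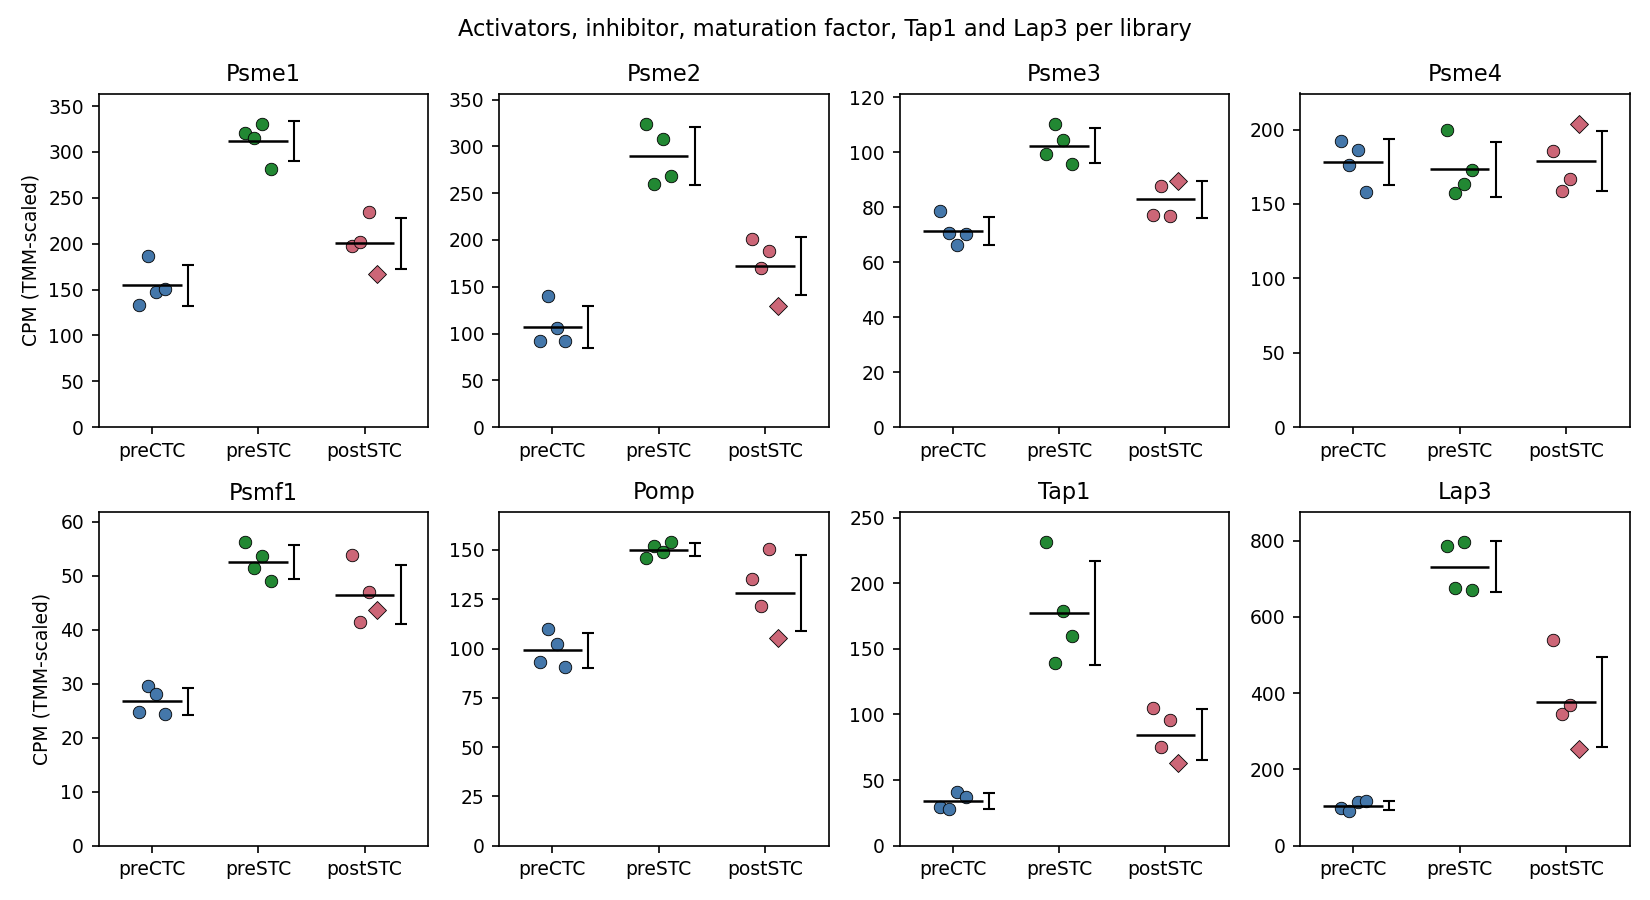
CPM in each library of the 4 activators, the inhibitor Psmf1, the maturation factor Pomp, the peptide transporter gene Tap1 and the aminopeptidase gene Lap3. Lines are group means, bars are SDs over 4 libraries and the diamond is postSTC7. Psme1, Psme2, Tap1 and Lap3 are highest in preSTC, while Psme4 overlaps among the 3 groups and Psmf1 is above preCTC in both other groups.

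Promoter windows are shown for the 3 immunoproteasome subunits and for Psme1 and Psme2, a set chosen with their rise in preSTC known. It is not set apart by that rise, since 39 of the 45 tested proteasome genes rose there. Each window runs from 250 bases before to 50 bases after the annotated start on the gene's strand, from RefSeq on assembly GRCr8, and 42 of the 47 genes had one. Capitals mark matches on either strand to the core of the interferon-stimulated response element (ISRE), which is GAAA, any pair of bases (NN) and GAAA again, or to the gamma-activated site TTCNNNGAA, and all remaining bases are in lower case. The windows are at chr20:4656982-4657281 (minus strand) for Psmb8, chr20:4668750-4669049 (plus strand) for Psmb9, chr19:50743243-50743542 (minus strand) for Psmb10, chr15:33052702-33053001 (minus strand) for Psme2 and chr15:33038721-33039020 (plus strand) for Psme1.
Psmb8: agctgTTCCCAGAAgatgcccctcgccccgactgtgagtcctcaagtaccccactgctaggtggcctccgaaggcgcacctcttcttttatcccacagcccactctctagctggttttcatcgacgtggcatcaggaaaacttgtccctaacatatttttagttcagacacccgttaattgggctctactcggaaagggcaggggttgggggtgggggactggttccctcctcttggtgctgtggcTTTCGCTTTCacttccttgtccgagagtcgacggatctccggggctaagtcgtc
Psmb10: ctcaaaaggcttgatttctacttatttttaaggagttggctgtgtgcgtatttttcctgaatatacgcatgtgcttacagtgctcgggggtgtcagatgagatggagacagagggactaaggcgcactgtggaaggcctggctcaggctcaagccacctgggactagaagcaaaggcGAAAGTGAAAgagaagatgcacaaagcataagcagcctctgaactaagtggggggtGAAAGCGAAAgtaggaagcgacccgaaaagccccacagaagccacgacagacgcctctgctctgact
Psme2: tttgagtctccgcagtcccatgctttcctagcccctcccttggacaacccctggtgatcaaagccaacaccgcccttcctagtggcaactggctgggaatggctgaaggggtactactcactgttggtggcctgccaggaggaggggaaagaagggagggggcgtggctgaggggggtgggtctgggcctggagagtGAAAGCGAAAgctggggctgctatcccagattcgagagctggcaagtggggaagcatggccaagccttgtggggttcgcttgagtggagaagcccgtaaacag
Psmb9: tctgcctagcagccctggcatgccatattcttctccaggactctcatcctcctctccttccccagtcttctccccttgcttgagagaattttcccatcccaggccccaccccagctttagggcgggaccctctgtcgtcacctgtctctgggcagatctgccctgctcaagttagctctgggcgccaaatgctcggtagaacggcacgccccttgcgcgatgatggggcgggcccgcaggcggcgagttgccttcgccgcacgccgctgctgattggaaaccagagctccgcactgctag
Psme1: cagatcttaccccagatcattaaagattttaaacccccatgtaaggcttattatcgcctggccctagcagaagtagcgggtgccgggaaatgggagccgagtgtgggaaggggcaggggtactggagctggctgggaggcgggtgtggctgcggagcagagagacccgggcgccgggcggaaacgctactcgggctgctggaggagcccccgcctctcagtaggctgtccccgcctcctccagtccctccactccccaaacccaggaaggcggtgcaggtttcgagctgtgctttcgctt

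In Psmb8 an ISRE match begins 4 bases before the start, on the reverse strand, and a TTCNNNGAA match lies 245 bases before it. Psmb10 holds a pair of ISRE matches, 73 and 17 bases before the start, and Psme2 holds 1 that begins 53 bases before it. No match to either pattern lay in the windows of Psme1 and Psmb9, the latter of which faces that of Tap1 head to head and shares 44 bases with it. The Psme1 window ends in the opening bases of the ISRE match marked in Psmb8, so a match across that edge would be missed. The Tap1 window has an ISRE match 121 bases before the Tap1 start. Of Psmb8, Psmb9, Psmb10, Psme1 and Psme2, 3 of 5 windows held the ISRE core, against 6 of the 42 windows of all proteasome genes. The windows of Psmf1 and Pomp, which also rose in preSTC, held none. The ISRE core was in 3 of 30 windows of other 20S and 19S subunits (Psma4, Psmb3 and Psmd7) and in 3.92% of all 33469 promoter windows. The antioxidant response element core TGACNNNGC was in 0 of those 5 windows, in 7 of the 30 and in 12.1% of all windows, and CCAAT was in 2 of 5, 15 of 30 and 37.5%. TTCNNNGAA was in 1 of 5, 3 of 30 and 8.87%. These are matches of letters only.

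The alpha ring of the 20S core, whose N-termini form the gate, moved together. All 7 tested members rose in preSTC over preCTC, with a median log2 fold change of 0.60 and a range of 0.50 to 0.74, and all 7 fell after the operation, with a median of -0.45 and a range of -0.61 to -0.29. The shares over all genes tested, for this and each later list of subunits, were 19.1% rising in preSTC and 6.90% falling after the operation. With the block over 12 libraries 5 of the 7 fell. Psma2, the most abundant of them per kilobase, was at 153, 152, 142 and 139 CPM in preCTC, 224, 207, 231 and 231 in preSTC and 139.9, 144, 171 and 133 in postSTC. PreSTC stood above both other groups without overlap, and postSTC and preCTC overlapped, with a log2 difference of 0.00 ± 0.09 (adjusted p = 0.989). The drop in Psma2 was 1.52-fold (adjusted p = 0.0023). Psma5 was at 75.7, 84.7, 75.4 and 67.9 CPM in preCTC, 137, 118, 129 and 124 in preSTC and 78.7, 93.5, 91.5 and 69.2 in postSTC. It rose by 0.74 ± 0.11 (adjusted p = 0.00031) and then fell by 0.61 on the log2 scale (adjusted p = 0.00401).

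Among the remaining alpha subunits, Psma7 fell after the operation from 224 ± 18.1 to 164 ± 11.3 CPM (adjusted p = 0.0075), Psma3 from 203 ± 12.4 to 145 ± 16.9 CPM (adjusted p = 0.00733) and Psma1 from 172 ± 6.66 to 134 ± 3.50 CPM (adjusted p = 0.00718). Psma4 fell from 176 ± 11.4 to 135 ± 14.0 CPM (adjusted p = 0.0176), a call lost with the block over 12 libraries (adjusted p = 0.0649) and without preSTC1 or preSTC7. Between postSTC and preCTC edgeR called no alpha subunit, with 2 higher at an unadjusted p under 0.05 and none called by limma voom. DESeq2 called Psma6 higher (log2 0.21, adjusted p = 0.038), and without postSTC7 edgeR called Psma4 higher (log2 0.29, adjusted p = 0.0419). Psma8, the testis form of the alpha ring, had 5, 0, 1 and 21 counts in preCTC, 0 in all preSTC libraries and 2, 0, 2 and 5 in postSTC, too few to test.

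Of the 4 structural beta subunits, 3 rose in preSTC and 3 fell after the operation, Psmb1 being the exception in both. Psmb2 was at 71.3, 72.5, 66.2 and 67.4 CPM in preCTC, 107, 97.8, 104 and 97.3 in preSTC and 73.0, 75.2, 79.1 and 72.5 in postSTC. All preSTC values exceeded the rest, and postSTC overlapped preCTC. Psmb2 rose by 0.55 ± 0.07 on the log2 scale (adjusted p = 0.000133) and then fell by 0.44 (adjusted p = 0.00254). Psmb4, the most abundant of the 4 per kilobase, went from 163 ± 8.06 CPM in preCTC to 220.3 ± 12.6 in preSTC (adjusted p = 0.00254) and 164 ± 14.1 in postSTC (log2 -0.42 ± 0.09 against preSTC, adjusted p = 0.00876; 0.051 with the block over 12 libraries). Per kilobase over the 12 libraries, the tested 20S subunits other than the immunoproteasome ranged from 80.9 for Psma3 to 202 CPM per kilobase for Psma2.

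In the base of the 19S particle, the ring of 6 ATPases that unfolds substrates rose in preSTC, all 6 of them, by a median of 0.41 on the log2 scale, while 2 of the 6 fell after the operation. These 2 were Psmc2, from 146 ± 6.04 to 114 ± 6.20 CPM (adjusted p = 0.00967), and Psmc3, from 195 ± 9.46 to 155 ± 7.19 CPM (adjusted p = 0.0251). Both lost the call with the block over 12 libraries (adjusted p = 0.0547 and 0.0536). Psmc6, the least abundant ATPase per kilobase, ranged over 64.8 to 77.5 CPM in preCTC, 76.8 to 93.4 in preSTC and 67.8 to 80.3 in postSTC, with overlapping groups, and its rise in preSTC (adjusted p = 0.0249) was lost on leaving out any of preCTC7, preCTC9, preSTC7 or preSTC9. Immunoproteasome aside, Psmc1 was the 1 subunit of 20S or 19S that edgeR called above preCTC after the operation. It was at 129, 129.7, 136 and 114 CPM in preCTC and 161, 148, 155 and 158 in postSTC (log2 0.29 ± 0.09, adjusted p = 0.0409), and leaving out any single library of the 8 ended that call. DESeq2 called 5 of these subunits higher (Psma6, Psmc1, Psmc5, Psmd11 and Psmd14) and Sem1 lower. Without postSTC7, edgeR called Psma4 and Psmd14 in place of Psmc1 (adjusted p = 0.0419 and 0.0194).

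All 4 other base subunits, which include the ubiquitin receptors Psmd4 and Adrm1 and the scaffolds Psmd1 and Psmd2, rose in preSTC, and 2 fell after the operation. Psmd4 was at 85.9, 85.2, 86.8 and 85.4 CPM in preCTC, 127, 116, 130.4 and 114 in preSTC and 94.4, 103, 89.9 and 105 in postSTC. The 3 groups did not overlap. It rose by 0.51 ± 0.08 (adjusted p = 0.000427) and fell after the operation (log2 -0.32 ± 0.08, adjusted p = 0.0181). Psmd1 went from 115 ± 12.9 to 174 ± 10.9 CPM (adjusted p = 0.0005) and to 134 ± 7.25 CPM after the operation (adjusted p = 0.0181). Both drops were lost without preSTC1 or preSTC7, and that of Psmd4 also without postSTC5.

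The lid, which carries the deubiquitinase Psmd14, had the widest spread of the 19S lists in preSTC, with an SD of 0.25 over its log2 fold changes. In preSTC 7 of its 9 members rose and 3 fell after the operation. Psmd14 was at 41.7, 52.8, 49.6 and 42.1 CPM in preCTC, 81.1, 80.8, 79.4 and 74.2 in preSTC and 57.3, 59.7, 64.3 and 50.4 in postSTC. It rose 1.69-fold (adjusted p = 0.000179) and then fell by 0.45 on the log2 scale (adjusted p = 0.0131), with preSTC above both other groups. Psmd11, the least abundant lid transcript per kilobase, rose from 88.6 ± 4.84 to 124 ± 6.26 CPM (adjusted p = 0.000533). Its drop to 105 ± 6.25 CPM was close to the threshold (adjusted p = 0.0474), was lost with the block (adjusted p = 0.138 over 12 libraries) and was lost on leaving out any single library except postSTC1. Sem1, a small acidic lid subunit and the most abundant of the list at 135 CPM per kilobase over the 12 libraries, passed in no comparison by edgeR and was at 112 ± 9.46, 101 ± 6.25 and 93.0 ± 10.0 CPM. Against preCTC its postSTC estimate was -0.27 by both tools (adjusted p = 0.0783 by edgeR and 0.0366 by DESeq2), and with gland genes removed and totals as the scale its preSTC estimate of -0.31 was called (adjusted p = 0.0438). Without postSTC7, Psmd12 and Psmd3 were also called lower after the operation (adjusted p = 0.0131 and 0.00536), and Psmd11 was not.

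Taking the 33 tested 20S and 19S subunits without the immunoproteasome, 29 rose in preSTC (median 0.47), where 19.1% of all genes tested rose. After the operation 18 of the 33 fell (median -0.29), where 6.90% of all genes did. With the block over 12 libraries 9 were called lower, and without postSTC7 21 were. Their estimates against preCTC after the operation had a median of 0.14, with 1 called higher, where 9.27% of all genes tested were. That side depended on the scaling, since with library totals alone the median of all 45 tested genes against preCTC was -0.05, with 30 of 45 below 0. The 3 immunoproteasome subunits had medians of 2.23, -0.92 and 1.30 in the same 3 comparisons.

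The inhibitor and the maturation factor were above preCTC both before and after the operation. Psmf1 encodes PI31, which binds the core and can inhibit it. It was at 24.8, 29.5, 28.1 and 24.4 CPM in preCTC, 56.2, 51.3, 53.6 and 49.0 in preSTC and 53.9, 41.4, 46.9 and 43.6 in postSTC. Both STC groups lay above preCTC and overlapped each other. Psmf1 was 1.97-fold higher in preSTC (adjusted p = 3.78e-05) and 1.74-fold higher in postSTC (adjusted p = 0.000451) than in preCTC, with -0.18 ± 0.10 on the log2 scale between them (adjusted p = 0.257). Pomp, the chaperone that completes the core and that interferon also induces, was at 99.1 ± 8.86, 150.2 ± 3.47 and 128 ± 19.2 CPM. It was 1.52-fold higher in preSTC (adjusted p = 0.00127) and 1.29-fold higher in postSTC (adjusted p = 0.0376) than in preCTC, but the latter call was lost without postSTC1, postSTC2, postSTC5, preCTC1, preCTC7 or preCTC9.

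Ifng, the cytokine that the pathway lists as the inducer of the immunoproteasome, had 0, 2, 1 and 0 counts in preCTC, 29, 28, 31 and 31 in preSTC and 4, 1, 41 and 3 in postSTC. The preSTC libraries were nearly equal, whereas postSTC5 held 41 of the 49 counts of its group. Scaled for depth, summed counts of preSTC were 43.0 times those of preCTC, with a 95% counting interval of 14.4 to 212 that covers counting error only. For postSTC the ratio to preCTC was 19.6 (6.34 to 98.5) and the ratio to preSTC 0.456 (0.320 to 0.641). The edgeR call against preCTC (adjusted p = 0.00357 in preSTC, 0.0333 in postSTC) was lost for postSTC without postSTC5, preCTC1, preCTC7 or preCTC9, and between postSTC and preSTC there was no call (adjusted p = 0.337). Of the 2 genes in no role list, Psmd9, a chaperone of base assembly, rose from 17.5 ± 1.67 to 23.5 ± 3.15 CPM in preSTC (adjusted p = 0.0138). LOC100360846, annotated as a relative of Psmb6, was at 2.85 ± 0.401, 3.29 ± 0.268 and 3.18 ± 1.33 CPM without a call. How reads shared with Psmb6 were counted is not known, since the counting settings are not given.

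Genes that act beside the proteasome were examined as 4 lists. Of 23 genes for assembly chaperones, proteasome-bound deubiquitinases and ligases, ubiquitin itself, and shuttle receptors with the unfoldase, 9 rose and none fell in preSTC, and the median log2 fold change was 0.05. Over all genes tested, 19.1% rose and 19.6% fell there, and after the operation 11.1% rose and 6.90% fell. After the operation 0 of the 23 were called in either direction, with 1 higher and 2 lower at an unadjusted p under 0.05, 1 higher and 1 lower by DESeq2 and none by limma voom. Without postSTC7, Vcp (log2 -0.45, adjusted p = 0.0158) and Rad23b (log2 -0.28, adjusted p = 0.0347) fell. Usp14, a deubiquitinase that trims ubiquitin on the 19S particle, was at 47.1 ± 4.18, 65.1 ± 3.12 and 63.6 ± 5.51 CPM. It was above preCTC in preSTC (adjusted p = 0.0019) and in postSTC (adjusted p = 0.00738). Ubqln1, which carries ubiquitylated proteins to the proteasome, went from 159.6 ± 10.5 to 285 ± 16.1 CPM in preSTC (adjusted p = 7.18e-05) and was at 239.9 ± 24.1 CPM in postSTC (adjusted p = 0.00196 against preCTC). The remaining calls in preSTC included Uchl5 (log2 0.60), Ube3c (0.29), Ubb (0.32), Ufd1 (0.41) and Nploc4 (0.60).

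Among 9 genes listed under transcriptional control of the subunits, neither Nfe2l1, the factor that induces proteasome genes when proteolysis is limiting, nor Nfe2l2 passed in any comparison. Nfe2l1 was at 216 ± 13.3, 246 ± 31.1 and 257 ± 13.2 CPM. Stat3 followed the subunits, with 188 ± 14.2, 258 ± 7.26 and 197 ± 5.90 CPM (adjusted p = 0.0011 in preSTC against preCTC and 0.00873 after the operation). Foxo4 moved the opposite way, with 45.4 ± 8.10, 29.2 ± 3.64 and 43.1 ± 1.12 CPM (adjusted p = 0.00272 and 0.014). Zfand2a stood in the same list, although it encodes an arsenite-inducible protein that associates with the proteasome. It was 2.78-fold higher in preSTC (adjusted p = 0.000593) and 2.67-fold higher in postSTC (adjusted p = 0.00204) than in preCTC. With the block over 8 libraries the adjusted p after the operation was 0.164 for Stat3 and 0.135 for Foxo4.

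Of 12 genes of the interferon pathway that controls the immunoproteasome, 8 rose and 1 fell in preSTC, 4 fell after the operation, and 7 were above preCTC in postSTC. Over all genes tested, 19.1% rose and 19.6% fell in preSTC, 6.90% fell after the operation and 9.27% were above preCTC in postSTC. The 1 that fell in preSTC was Irf2, a factor that competes with Irf1 (log2 -0.28 ± 0.08, adjusted p = 0.0133). Drops after the operation included those of the transcription factors Irf8 (log2 -1.22 ± 0.20, adjusted p = 0.00254) and Irf1 and of the feedback inhibitor Socs1 (-1.05 ± 0.20, adjusted p = 0.00486). Nlrc5, the activator of MHC class I genes, rose in preSTC (log2 2.08 ± 0.34, adjusted p = 0.000636) and was above preCTC in postSTC (log2 1.58 ± 0.34, adjusted p = 0.00809).

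Peptides made by the proteasome are trimmed and loaded by 11 listed genes, of which 8 rose in preSTC, 4 fell after the operation and 8 were above preCTC in postSTC, with no call in the other direction. The shares over all genes tested were 19.1%, 6.90% and 9.27% in the same order. Tap1, 1 chain of the peptide transporter, which shares its promoter region with Psmb9, was at 29.3, 28.3, 40.6 and 36.9 CPM in preCTC, 231, 139, 179 and 159.9 in preSTC and 105, 75.4, 96.1 and 62.7 in postSTC. It was 5.24-fold higher in preSTC (adjusted p = 7.48e-06) and 2.09-fold lower after the operation (adjusted p = 0.00486; 0.0996 with the block over 8 libraries), with no overlap among the 3 groups. Lap3, a leucine aminopeptidase, rose 6.99-fold in preSTC (adjusted p = 2.3e-06), fell 1.95-fold after the operation (adjusted p = 0.00738) and was still 3.59-fold above preCTC (adjusted p = 9.23e-05). Tap2 and Tapbpl followed with log2 fold changes of 1.41 and 1.02 in preSTC and -0.69 and -0.40 after the operation.

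Markers of several cell types differed between the groups alongside the proteasome genes. For comparison, 19.1% of all genes tested rose and 19.6% fell in preSTC, and 11.1% rose and 6.90% fell after the operation. The 7 markers of T and NK cells summed to 47.1 to 157 CPM in preCTC, 299 to 548 in preSTC and 113 to 341 in postSTC. Of these, 6 rose in preSTC, among them Cd3e, a chain of the T cell receptor complex (log2 2.53 ± 0.45, adjusted p = 0.00101), and none was called after the operation, with 2 lower at an unadjusted p under 0.05, 2 by DESeq2 and 1 by limma voom. In preSTC replicate order the T and NK sums were 299, 548, 336 and 358.5 CPM. Of the listed plasma cell markers, Jchain had no match in the count table, which left Mzb1, Sdc1 and Xbp1. These 3 summed to 343 to 432 CPM in preCTC, 569 to 769 in preSTC and 486 to 645 in postSTC, and 2 of them rose in preSTC. By library in preSTC, plasma cell sums were 769, 569, 631 and 606 CPM, and epithelial sums were 13832, 11024, 13327 and 13010 CPM. Macrophage and dendritic cell sums there were 192, 248, 205 and 188 CPM. How these sums relate to Psmb8 and Psmb9 was not tested. Macrophage and dendritic cell markers summed to 120.1 to 225, 188 to 248 and 104 to 355 CPM, and 1 of 5 rose in preSTC, near the share over all genes. Epithelial markers summed to 7178 to 10518, 11024 to 13832 and 5478 to 11527 CPM. Of these 7, 2 rose in preSTC and 2 had estimates below 0, with a median log2 fold change of 0.126, and 1 fell after the operation. Fibroblast markers summed to 4055 to 6398, 1510.3 to 2005 and 1618 to 2925 CPM, with 3 of 4 lower in preSTC and 1 higher after the operation. Smooth muscle markers summed to 9718 to 16485, 2982 to 4598 and 5301 to 7994 CPM. All 6 smooth muscle markers fell in preSTC, and 3 rose after the operation. The part of tissue composition in the proteasome differences was not tested.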

How the data were processed

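Whole read counts per gene were deposited by the authors for 12 libraries, with 1 column each and no pooling. FPKM values, deposited by the authors for the same libraries, followed from those counts (largest relative deviation 7e-16) and entered only alternative settings and gene lengths. The tools fastp, HISAT2 and HTSeq and the assembly mRatBN7.2 are named per the submitters' processing notes, whose versions and settings these sources do not give. The series' design text describes a pig genome and other tools and was not used. Use of strand in counting is not stated in them either.

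Here edgeR 4.0.16 (R 4.3.3) scaled libraries by TMM, filtered with filterByExpr (15704 of 18749 genes kept) and fitted a quasi-likelihood model of the 3 groups to all 12 libraries. Tests were two-sided with Benjamini-Hochberg adjustment. Each SE was derived as the size of the log2 fold change over the root of its F statistic. Pair ratios used counts plus 0.5. Length-scaled levels are TMM-scaled CPM divided by the gene length in kilobases implied by the FPKM values. Depth was 30095656 to 39374682 counts. Reads carry no molecular identifiers, so PCR copies are counted and intervals cover counting error only. Replicates differed by more than sampling noise (chi-square of at least 32.3 per gene). The analysis was also tested on simulated data, which checked the code only. The simulated libraries had less spread than these data, no pairing and no library like postSTC7.

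Pairing was examined by correlating the deviations of same-numbered libraries from their group means. The correlations were 0.236, 0.158 and 0.168 for numbers 1, 5 and 7 of postSTC and preSTC. Libraries of different number were not correlated, so these values cannot show whether the samples are paired. The main fit held no term for the number, which entered as a block in alternative fits.

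Alternatives were DESeq2 1.42.0, limma 3.58.1 (voom, or trend on log2 FPKM plus 1 or 0.1), RLE factors, library totals, no filter, gland genes removed, replicate blocks and leaving out each library. Values were named for the catalytic pairs, activators, Pomp, Psmf1, Ifng, Psma8, Psmb11, the most and least abundant member per role, up to 10 further called members of smallest p per comparison and direction, and up to 3 called genes per neighbouring list. Gene lists and members were chosen with earlier results of these data known. RefSeq names (GRCr8) matched 18531 of 18749 identifiers and all 47 proteasome genes.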

Additional observations from a re-analysis of the deposited data

Results flagged for a closer look

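In 99 sets of 4 libraries (each named proteasome gene in each group in which its libraries differed), 3 held a library whose gap to its nearest neighbour exceeded Dixon's critical share of the whole range of its set. Chance flags about 1 set in 20. The CPM of Psmb10 was 50.9 in postSTC7, against 84.4 to 90.4 in the other 3 libraries of postSTC. Ifng was at 1.09 CPM in postSTC5, against 0.0246 to 0.134 in the rest of postSTC, and these libraries held 41 counts against 1 to 4. Psma3 was at 184 CPM in preSTC5, against 207 to 211 in the rest of preSTC.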

How the results depend on the processing

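Results for preSTC against preCTC held best: 39 of 45 proteasome genes were called, 36 to 39 on leaving out each library in turn, 36 and 38 with a replicate block over 12 and 8 libraries, and 33 (32 higher and 1 lower) with the gland genes removed and totals as the scale, a setting chosen after seeing the data. Library totals alone and limma on log2 FPKM plus 1 or plus 0.1 gave 7, 7 and 7 genes (all genes 3973, 3824 and 3753 against 6077). In those settings the totals of postSTC7 include the gland transcripts.

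For postSTC against preSTC (23 genes, and 2833 of all genes), the same 3 settings gave 0, 0 and 0 genes (all genes 848, 521 and 653). The replicate block gave 14 over 12 libraries and 0 over 8 (all genes 1746 and 66), and gland genes removed with totals as the scale gave 14. Leaving out each library gave 13 to 26 (all genes 1609 to 3684). For postSTC against preCTC (7 genes, and 2612 of all genes), DESeq2 gave 13, the 3 settings above 1, 0 and 0 (all genes 1560, 1668 and 1569), the replicate block 4 and 0 (all genes 1399 and 151), and the fit of 8 libraries without a block 3 (all genes 1455). Leaving out each library gave 3 to 10 (all genes 1780 to 3123), with the lowest values of 3, 4 and 4 without preCTC1, preCTC7 and preCTC9. Same-numbered libraries of preSTC and preCTC had deviation correlations of 0.222, -0.0278, 0.171 and 0.145, and those of postSTC and preCTC 0.220, -0.0159 and 0.0544. For these comparisons too, the values cannot show whether the numbers pair the samples. Without postSTC7 the call on Psmd11 after the operation and that on Psmc1 against preCTC were lost among the named genes.

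Library totals moved the median log2 fold change of all genes from -0.02 to -0.18 in preSTC against preCTC (1175 higher and 2798 lower), from 0.04 to -0.20 in postSTC against preCTC (608 higher and 952 lower) and from 0.04 to -0.04 in postSTC against preSTC (671 higher and 177 lower). Gland genes removed with totals as the scale gave 2192 higher and 695 lower in the last of these.

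The pair ratios use no scaling. Leaving out each library, the difference after the operation ranged from -0.937 to -0.296 for Psmb8 to Psmb5, from -0.749 to -0.476 for Psmb9 to Psmb6 and from -0.809 to -0.438 for Psmb10 to Psmb7. Between preSTC and preCTC the ranges were 1.878 to 2.248, 1.697 to 1.946 and 0.729 to 0.879, and between postSTC and preCTC 1.149 to 1.790, 1.043 to 1.350 and 0.005 to 0.376. Calls between preSTC and preCTC were lost without any 1 of the preSTC libraries, preCTC1, preCTC7 or preCTC9 (adjusted exact p = 0.0514 or 0.0643). Calls after the operation were lost without any 1 of the preSTC libraries, and that on Psmb9 to Psmb6 against preCTC without preCTC1, preCTC7 or preCTC9 (adjusted exact p = 0.0514 to 0.0857). No difference changed sign on leaving out a library. Without preCTC1 the difference of Psmb8 to Psmb5 between preSTC and preCTC was 2.16, against 2.086 with all libraries, although the call was lost. The adjustment runs over the 9 ratios and comparisons, so an adjusted exact p also moves with the other tests.

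Estimates that were never called changed sign in some settings, given here on the log2 scale for library totals, FPKM plus 1 and FPKM plus 0.1. For postSTC against preCTC these were -0.170, -0.211 and -0.214 for Psmb5, -0.099, -0.136 and -0.138 for Psmb6, -0.017, -0.053 and -0.053 for Psmb7, -0.032, -0.062 and -0.065 for Psme3 and -0.250, -0.255 and -0.273 for Psme4. Psmb5 was also at -0.013 and -0.012 with the replicate block over 12 and 8 libraries and at -0.008 with gland genes removed and totals as the scale. Psme4 was at -0.011 with gland genes removed, -0.071 with totals as well, -0.004 with the replicate block over 8 libraries, and -0.013, -0.065, 0.000 and -0.048 without postSTC1, postSTC7, preCTC5 and preCTC9 (highest 0.059 on leaving out a library). After the operation Psme4 was at -0.053, -0.069, -0.075 and, leaving out each library, -0.031 (without postSTC7) to 0.120. In preSTC against preCTC it ranged from -0.114 to 0.005, the latter without preSTC5. The cause of these changes was not tested. Depth limited Ifng, Psma8 and Psmb11.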

Other observations

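The alpha ring and the 19S lid lay at opposite ends of their postSTC ranges in library postSTC7. Summed over the alpha ring, CPM was 984, 949.8, 1019.9 and 860.3 in postSTC replicates 1, 2, 5 and 7, so that postSTC7 was the lowest. Summed over the 19S lid it was 791, 760.0, 808 and 903, and postSTC7 was the highest. The 19S ATPases, at 679, 661, 688 and 669.9, and the structural beta subunits, at 462, 509, 537 and 483, were at neither end there, whereas the constitutive catalytic subunits were highest, at 255, 279.7, 286 and 300.1. Chosen after their values were seen, the lid subunits Psmd3 and Psmd7 and the base scaffold Psmd2 were highest in postSTC7. Psmd7 was at 81.9, 78.8, 80.8 and 127 CPM, Psmd3 at 113, 110.2, 112 and 167 CPM and Psmd2 at 168, 177, 163 and 217 CPM in the same order. Vcp, the unfoldase that extracts proteins ahead of the proteasome, was at 400.2, 420.1, 404 and 689 CPM, and the shuttle receptor Ubqln2 at 21.5, 23.7, 22.6 and 97.2 CPM, both also chosen after their values were seen. The same library carried the accessory gland transcripts, whose part in these levels was not tested.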
